A study of Homo sapiens with 9 samples.

Results

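The circadian clock genes examined here, 10 in all, were PER1, PER2, PER3, CRY1, CRY2, NR1D1, NR1D2, DBP, TEF and BHLHE40. They were taken as the probe sets whose platform annotation names exactly 1 of these symbols and no other gene. This gave 18 probe sets for 8 of the 10 genes, out of 19775 genes named by such probe sets on the arrays. PER1 and NR1D1 had no probe set of their own. The 7 probe sets naming 1 of them together with a further gene (MIR6883 with PER1, THRA with NR1D1) are reported under both symbols and counted apart. RNA came from MCF10A, a line of breast epithelial cells that grows indefinitely in culture but forms no tumours, and 9 one-colour Affymetrix arrays were used, 3 per group. Vector cells had received the pBabe retrovirus without an insert, and cells labelled ERBB2 the same virus carrying ErbB2. The EGF group was infected as the vector cells were and then given 50 ng/ml EGF for 2 h. All cells had been maintained in 5% horse serum with 20 ng/ml EGF, hydrocortisone, cholera toxin and insulin, and after infection all were held in 2% horse serum without EGF. The labels give no harvest time of day and no time series, so neither phase nor amplitude of a rhythm was measured. They call the replicates biological without saying that each was infected on its own, so a p-value here reflects spread among these samples, which may be technical.

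The mammalian clock is a feedback loop of transcription. The factors CLOCK and BMAL1 bind E-box sequences and drive the PER and CRY genes, whose proteins return to the nucleus and repress CLOCK and BMAL1. The nuclear receptors REV-ERB alpha and REV-ERB beta, encoded by NR1D1 and NR1D2, repress BMAL1 in a second loop, and the PAR bZIP factors DBP and TEF carry the rhythm to genes with D-box sequences. BHLHE40, also called DEC1, binds E-boxes as a repressor. In cultured cells serum, growth factors, cyclic AMP and glucocorticoids can reset this loop, and PER1 and BHLHE40 are known as genes that respond quickly to such signals.

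The DNA before the start sites is shown because clock elements were found among both the members that fell and those that rose. Promoter entries for all 10 genes, 14 in all, were taken from RefSeq (GRCh38.p14), each with 250 bases before and 50 after a start. They were searched on both strands for the E-box CACGTG, the related CACGTT, the D-boxes TTATGTAA and TTACGTAA, the AGGTCA core of the REV-ERB and ROR element, and the cyclic AMP element TGACGTCA. No match overlapped another. CACGTG was found in 5 of the 14 entries, those of PER1, NR1D2, TEF (both starts) and BHLHE40, and in 7.26% of all 35116 entries of the same length. CACGTT was found in 4 entries (PER2, CRY1, CRY2 and NR1D1), against 5.34% of all. D-box matches lay in 3 entries (PER2, PER3 and NR1D2), against 1.01%, and AGGTCA in 3 entries (1 of PER1 and both of CRY2), against 13.8%. TGACGTCA was in none of the 14 and in 1.85% of all. These genes were picked as clock genes, for which such elements are known, so the shares are a description. The stretches below run 5′ to 3′ on the gene's strand, capitals mark the match, and positions are counted from the first transcribed base. The first 2 lines each hold 1 E-box of NR1D2, which fell, and the third its D-box.
NR1D2 E-box, chr3:23945954-23945983, plus strand: ggcgggcggggaCACGTGaggccgctcggc
NR1D2 E-box, chr3:23946004-23946033, plus strand: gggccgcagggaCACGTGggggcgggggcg
NR1D2 D-box, chr3:23945916-23945945, plus strand: gtgacgcggcaTTACATAAtgggcgctgag
PER1 E-box, chr17:8152560-8152589, minus strand: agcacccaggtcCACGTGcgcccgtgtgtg
PER2 CACGTT, chr2:238288790-238288819, minus strand: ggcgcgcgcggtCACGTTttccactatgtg
PER2 D-box across the start, chr2:238288595-238288624, minus strand: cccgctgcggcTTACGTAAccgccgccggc
For 3 members with a single start in the table, the whole 250 bases before it follow. CRY1 and BHLHE40 rose and hold 1 match each. DBP fell, and none of these letters lies in its 250 bases, which says nothing about the factors that bind elsewhere in the gene.
CRY1, chr12:107093550-107093799, minus strand: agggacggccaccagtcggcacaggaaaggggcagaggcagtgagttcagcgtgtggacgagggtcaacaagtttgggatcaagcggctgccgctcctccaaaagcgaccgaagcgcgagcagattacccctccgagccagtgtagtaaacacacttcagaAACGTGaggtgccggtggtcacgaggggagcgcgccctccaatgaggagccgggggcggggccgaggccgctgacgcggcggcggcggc
BHLHE40, chr3:4979187-4979436, plus strand: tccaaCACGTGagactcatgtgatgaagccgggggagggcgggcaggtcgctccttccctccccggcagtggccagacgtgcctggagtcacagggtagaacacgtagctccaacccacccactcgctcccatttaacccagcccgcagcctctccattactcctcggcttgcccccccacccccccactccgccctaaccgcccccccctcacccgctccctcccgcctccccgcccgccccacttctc
DBP, chr19:48637380-48637629, minus strand: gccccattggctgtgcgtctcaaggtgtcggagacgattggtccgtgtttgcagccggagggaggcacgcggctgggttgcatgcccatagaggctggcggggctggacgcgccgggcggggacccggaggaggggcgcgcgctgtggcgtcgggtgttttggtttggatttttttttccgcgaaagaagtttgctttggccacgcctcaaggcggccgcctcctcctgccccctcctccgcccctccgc

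Signals are MAS5 values on a linear scale, and changes are differences of log2(signal + 16), which understate the change of dim probe sets. A probe set was tested if its mean log2 value over all 9 arrays lay above the 40th percentile, equivalent to a signal of about 10.6. That filter passed 12 of the 18 member probe sets and 7 of the 8 genes, and 5 of the 7 jointly annotated probe sets. CRY2, 2 of 4 PER3 probe sets and 3 of 4 TEF probe sets did not pass. Median signals of the arrays lay between 17.9 and 20.2 in the vector and labelled ERBB2 groups and between 15.6 and 16.9 with EGF, and every array was most similar to an array of its own group. The brightest ERBB2 probe set read 184, 216 and 122 on vector arrays against 114, 72.2 and 110.2 on arrays labelled ERBB2 (log2 change -0.71, limma adjusted p = 0.006756), and a dimmer one 5.68, 9.69 and 22.5 against 34.1, 34.2 and 38.5 (0.89, adjusted p = 0.008824). Leaving out vector replicate 2 took the brightest to -0.55 (adjusted p = 0.05082), and leaving out ERBB2 replicate 2 to -0.54 (0.05209), and in both cases the call ended at the threshold of 0.05. Since these probe sets point in opposite directions, the group is called "labelled ERBB2". The 5′ to 3′ ratio of the ACTB control was 0.701 to 0.796 there, against 0.325 to 0.436 on vector arrays and 0.378 to 0.505 with EGF, and the 3′ control for 18S RNA read 11930 to 13510 against 1945 to 4570 and 2103 to 3369. These controls move with every result given for the arrays labelled ERBB2, and their part in those results was not tested. Of the epithelial markers, KRT5, KRT14, CDH1 and ITGA6 had a single-gene probe set, and all 4 passed the filter. KRT17 and TP63, also listed, had none. Mean KRT14 was 2640 in vector cells, 148.9 in arrays labelled ERBB2 and 1758 with EGF, mean KRT5 11860, 6227 and 8847, and mean CDH1 1443, 1067 and 1207, each called lower in both comparisons with vector. ITGA6 was 688 in vector cells, 592 in arrays labelled ERBB2 (not called) and 1680 with EGF, where it was called higher (1.27, adjusted p = 5.745e-08). The summed signal of 5 fibroblast markers was 1282 to 1448 in vector cells, 361 to 513 in arrays labelled ERBB2 and 450 to 509 with EGF. DCN, a matrix proteoglycan, made up most of it, and PDGFRA, PDGFRB and LUM were below the filter. The sum of 5 blood and endothelial markers was 52.1 to 77.5, 115.6 to 125.7 and 50.7 to 65.9, with PECAM1 alone above the filter, and the part of either list in the results was not tested. In a bulk sample fewer cells expressing a gene and less RNA per cell cannot be told apart.

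The first comparison asked how clock transcripts differed between the arrays labelled ERBB2 and the vector arrays. BHLHE40 and CRY1 rose, while PER2, NR1D2, DBP and TEF fell, as did both bright probe sets shared by PER1 and MIR6883. PER3 was not called. Counted by the brightest probe set, 6 of 7 genes were called, 2 higher and 4 lower, where 45.8% of all genes were called, 20.8% higher and 25.0% lower. By probe set 8 of 12 were called, against 38.7% of all probe sets, and in 8 of 12 the groups did not overlap, against 47.0%. The median change of the 7 genes was -0.58, and of all genes -0.07.

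The second comparison asked what EGF did in vector cells within 2 h. BHLHE40 and CRY1 rose again, NR1D2 and DBP fell, and all 3 measured PER1/MIR6883 probe sets fell. The brightest PER2 probe set was not called, nor were PER3 and TEF. Of the 7 genes 4 were called, 2 higher and 2 lower, where 36.1% of all genes were called, 17.2% higher and 18.9% lower. Among the 12 probe sets 7 were called, against 28.8% of all, and the groups did not overlap for 7, against 42.2%. The median change was -0.33 for the 7 genes and -0.10 for all genes. Both comparisons use the same 3 vector arrays, so their values are given side by side below and are not independent of each other.

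**Figure D1:**
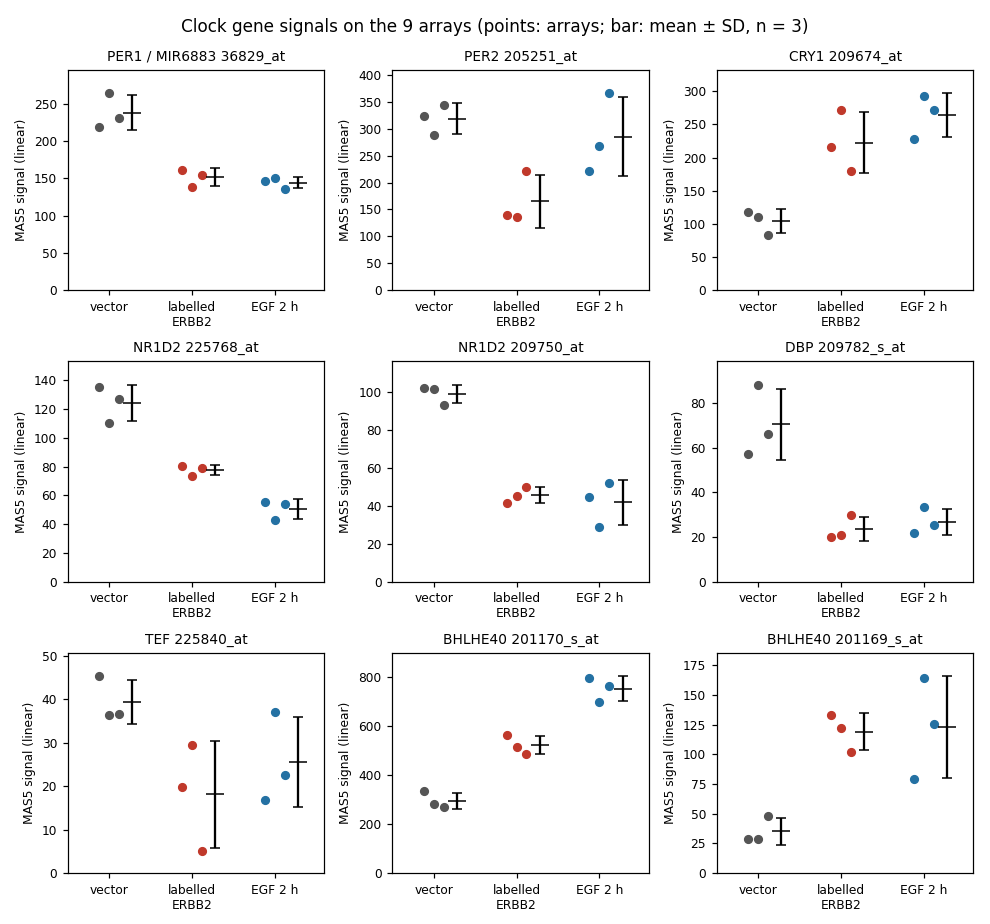
MAS5 signal (linear axis from 0) of 9 probe sets of clock genes on each array, by group, with points for arrays and a bar for the mean ± SD of 3 arrays. In the panels of PER1/MIR6883, NR1D2 and DBP all vector points lie above all others, and in those of CRY1 and BHLHE40 all vector points lie below.

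Among the PER and CRY repressors, PER2 fell in arrays labelled ERBB2 and was not called with EGF by its brightest probe set. PER2 encodes a scaffold protein of the repressor complex. Its brightest probe set (205251_at) read 324, 288 and 344 in vector cells, 139, 135 and 222 in arrays labelled ERBB2, and 222, 268 and 366 with EGF. All arrays labelled ERBB2 lay below all vector arrays, whereas the EGF arrays spanned the vector range. The mean fell from 319 ± 28.7 (SD, n = 3) to 165 ± 49.1 in arrays labelled ERBB2 (log2 change -0.91 ± 0.17 SE, adjusted p = 0.0002214). With EGF it was 285.5 ± 73.6 (-0.18, 95% interval -0.53 to 0.18, adjusted p = 0.4966). The dimmer PER2 probe set (208518_s_at) gave another order, with 22.5, 26.9 and 44.0 in vector cells, 31.7, 23.3 and 3.09 in arrays labelled ERBB2 and 3.87, 5.32 and 15.9 with EGF. It was called lower with EGF (-0.96, adjusted p = 0.03336) and not in arrays labelled ERBB2 (-0.49, adjusted p = 0.2633). That EGF call ended under 9 of 18 alternatives, among them leaving out vector replicate 2 (adjusted p = 0.05738), vector replicate 3 (0.1496), EGF replicate 1 (0.1146) or EGF replicate 2 (0.0995). The mean of both probe sets was called lower with EGF (-0.57, adjusted p = 0.02276) and in arrays labelled ERBB2 (-0.70, adjusted p = 0.005398), and did not separate these groups from each other (-0.14, adjusted p = 0.611), so the PER2 result with EGF depends on the probe set.

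CRY1, the other repressor of the complex with a usable probe set, moved the opposite way. It read 117, 111 and 83.6 in vector cells, 216, 272 and 180 in arrays labelled ERBB2, and 228.5, 293 and 272 with EGF. Every array labelled ERBB2 and every EGF array was above every vector array, and these 2 groups overlapped. From 103.9 ± 17.9 the mean rose to 222.5 ± 46.2 (log2 change 0.99 ± 0.15, adjusted p = 2.896e-05) and to 264 ± 32.8 with EGF (1.23 ± 0.15, adjusted p = 3.774e-06). CRY2, the partner that shares the repressor role, read 1.39 to 17.9 over the 9 arrays and was not tested. PER3, the third PER gene, was dim on all 4 of its probe sets, between 0.83 and 39.3 over all arrays, and both that passed the filter were uncalled in every comparison. Its brighter probe set changed by -0.23 in arrays labelled ERBB2 (95% interval -0.83 to 0.37) and by -0.33 with EGF (-0.94 to 0.27).

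PER1, whose protein works beside that of PER2, could be read only with MIR6883, a microRNA gene whose RefSeq span overlaps that of PER1. The probe set 202861_at read 264, 232 and 224 in vector cells, 145.5, 113 and 132 in arrays labelled ERBB2, and 158, 166 and 127 with EGF. No array of either group reached the lowest vector array. The PER1/MIR6883 change was -0.81 ± 0.14 in arrays labelled ERBB2 (adjusted p = 6.608e-05) and -0.63 ± 0.14 with EGF (adjusted p = 0.001431). A second probe set, 36829_at, read 219, 265 and 231.5, then 162, 139 and 155, and with EGF 147, 151 and 136. It separated the vector arrays from the rest in the same way, with changes of -0.60 (adjusted p = 0.0005706) and -0.66 (adjusted p = 0.0003568). The third, 244677_at, was 57.4 ± 15.5 in vector cells, 44.0 ± 2.03 in arrays labelled ERBB2 (-0.27, adjusted p = 0.3613) and 27.5 ± 7.67 with EGF (-0.75, adjusted p = 0.01308). The last of these calls ended with equal array medians and without vector replicate 1, vector replicate 2 or EGF replicate 1 (adjusted p up to 0.07062). The remaining PER1/MIR6883 probe set stayed at or below 3.47 on all arrays.

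Of the REV-ERB receptors, NR1D2 was measured by 2 probe sets that moved the same way. NR1D2 encodes REV-ERB beta, a repressor of BMAL1. Its brighter probe set (225768_at) read 135, 110.4 and 127 in vector cells, 80.5, 73.5 and 78.9 in arrays labelled ERBB2, and 55.5, 42.8 and 53.7 with EGF. The 3 groups did not overlap, with vector highest and EGF lowest. From 124 ± 12.7 it fell to 77.7 ± 3.66 (log2 change -0.58 ± 0.16, adjusted p = 0.006099) and to 50.7 ± 6.88 (-1.07 ± 0.16, adjusted p = 2.868e-05). The dimmer probe set (209750_at) read 102, 101 and 93.0, then 41.6, 45.0 and 49.8, and with EGF 44.5, 28.8 and 52.1. Here too all vector arrays were highest, but the other groups overlapped (-0.90, adjusted p = 0.0006226, and -1.01, adjusted p = 0.0003418). NR1D1, which encodes REV-ERB alpha, is read only with THRA, a thyroid hormone receptor gene whose RefSeq span overlaps it. The brightest NR1D1/THRA probe set read 44.0, 57.3 and 43.6 in vector cells, 49.5, 27.9 and 32.1 in arrays labelled ERBB2, and 20.2, 72.2 and 65.9 with EGF. The groups overlapped, and the EGF arrays differed among themselves by more than the groups did. No NR1D1/THRA probe set was called in any comparison with all arrays, and 1 of the 3 did not pass the filter. Without EGF replicate 1 the brightest was called lower in arrays labelled ERBB2 than with EGF (-0.72, adjusted p = 0.03506, against -0.31 and 0.4827 with all arrays).

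DBP fell in both comparisons on its brighter probe set. DBP is an activator at D-boxes and its transcript is among the most strongly rhythmic outputs of the loop in many tissues. The probe set 209782_s_at read 57.1, 88.3 and 66.4 in vector cells, 20.2, 21.0 and 29.9 in arrays labelled ERBB2, and 21.9, 33.4 and 25.5 with EGF. The lowest vector array was above every array of the other groups, which overlapped each other. The mean went from 70.6 ± 16 to 23.7 ± 5.40 (log2 change -1.12 ± 0.22, adjusted p = 0.0003175) and to 26.9 ± 5.88 (-1.01 ± 0.22, adjusted p = 0.001374). A dimmer DBP probe set (209783_at) did not follow. It read 20.6, 7.26 and 26.9 in vector cells, 18.1, 24.9 and 24.6 in arrays labelled ERBB2 and 11.7, 12.3 and 4.45 with EGF, with changes of 0.21 (adjusted p = 0.6038) and -0.40 (adjusted p = 0.3282). The mean of both DBP probe sets changed by -0.45 in arrays labelled ERBB2 (adjusted p = 0.02967) and by -0.70 with EGF (adjusted p = 0.003672).

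TEF, a second PAR bZIP activator, was measured above the filter by 1 of its 4 probe sets. It read 45.3, 36.5 and 36.5 in vector cells, 19.7, 29.5 and 5.12 in arrays labelled ERBB2, and 16.9, 37.1 and 22.6 with EGF. All arrays labelled ERBB2 were below the vector arrays, and 1 EGF array lay within the vector range. The change in arrays labelled ERBB2 was -0.77 ± 0.28 (adjusted p = 0.035) and with EGF -0.44 ± 0.28 (adjusted p = 0.2647). The TEF call in arrays labelled ERBB2 was lost in 8 alternatives. Among them were leaving out vector replicate 1 (adjusted p = 0.1083), vector replicate 2 (0.05988), vector replicate 3 (0.06179) or ERBB2 replicate 3 (-0.46, adjusted p = 0.1968). Its other 3 probe sets read at most 8.68 on any array.

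BHLHE40, the E-box repressor, rose on both of its probe sets. Its brightest probe set (201170_s_at) read 334, 281 and 270.5 in vector cells, 563, 516 and 488 in arrays labelled ERBB2, and 798, 698 and 764 with EGF. The groups formed 3 separate ranges, with EGF highest. From a mean of 295 ± 33.9 it climbed to 522 ± 37.8 (log2 change 0.80 ± 0.10, adjusted p = 2.515e-06) and with EGF to 753 ± 50.7 (1.31 ± 0.10, adjusted p = 6.73e-09). A second probe set (201169_s_at) read 28.7, 28.6 and 48.0 in vector cells, 133, 122 and 102 in arrays labelled ERBB2, and 79.4, 165 and 126 with EGF. It rose by 1.42 ± 0.21 in each comparison (adjusted p = 1.824e-05 and 3.376e-05), and its labelled ERBB2 and EGF arrays overlapped.

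**Figure D2:**
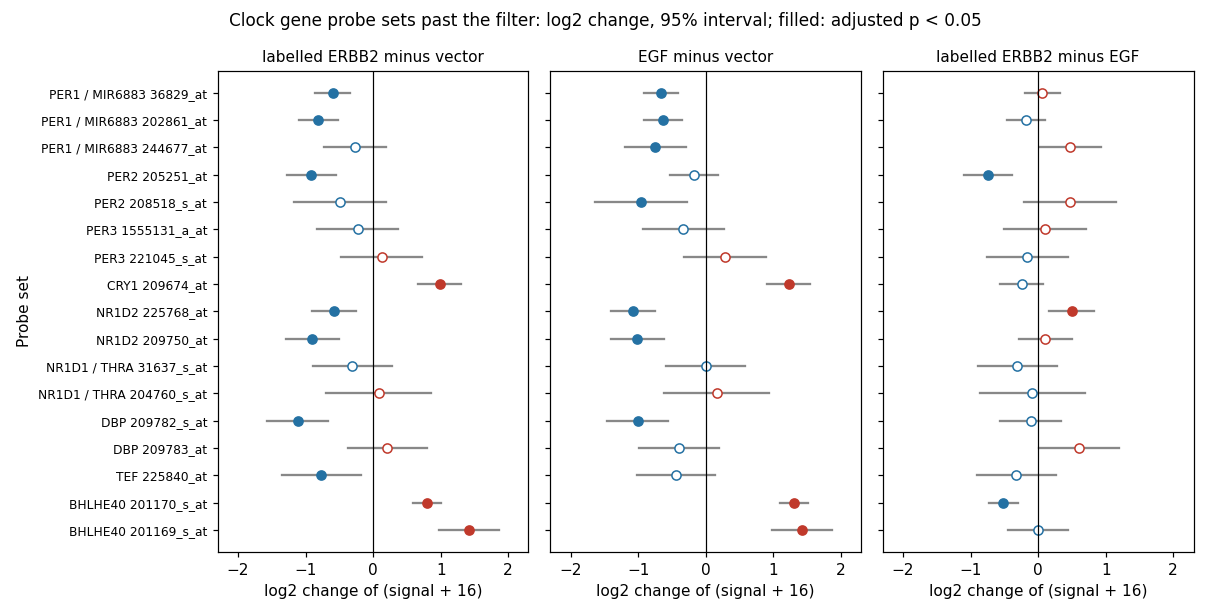
Log2 change of (signal + 16) with its 95% interval for the 12 probe sets of single clock genes and the 5 jointly annotated ones that passed the filter, in the 3 comparisons. Red points are above 0 and blue below, and filled points had a limma adjusted p under 0.05. CRY1 and BHLHE40 are filled and to the right of 0 in both comparisons with vector, and NR1D2 and the brighter DBP probe set are filled and to the left.

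The third comparison set the arrays labelled ERBB2 directly against the EGF arrays. The insert of the virus and the 2 h of EGF both differ here and cannot be told apart. By their brightest probe sets, 3 of 7 members were called, 1 higher and 2 lower, where 28.8% of all genes were called, 12.8% higher and 16% lower. By probe set it was 3 of 12, close to the 23.8% over all probe sets, and groups did not overlap for 4, against 37.9%. PER2 was lower in arrays labelled ERBB2 than with EGF (205251_at, log2 difference -0.74 ± 0.17, adjusted p = 0.003069), and its other probe set differed by 0.47 (adjusted p = 0.3449). BHLHE40 was lower too (201170_s_at, -0.52 ± 0.10, adjusted p = 0.0007414), while its other probe set differed by 0.00 (95% interval -0.44 to 0.44). NR1D2 was higher in arrays labelled ERBB2 (225768_at, 0.49 ± 0.16, adjusted p = 0.02748), and its other probe set differed by 0.11 (adjusted p = 0.7428). That NR1D2 call ended under 6 of 20 alternatives, including leaving out ERBB2 replicate 1 (adjusted p = 0.06702), ERBB2 replicate 3 (0.06443) or EGF replicate 2 (0.1133). When the probe sets of a gene were averaged, none of the 3 remained called (adjusted p = 0.611 for PER2, 0.1143 for BHLHE40 and 0.08869 for NR1D2). CRY1 differed by -0.24 (95% interval -0.56 to 0.08) and DBP by -0.11 (-0.56 to 0.34), neither of them called.

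Of the other genes around the loop, 28 in 6 groups had a single-gene probe set and 27 passed the filter. In arrays labelled ERBB2 5 of 27 rose and 6 fell by the brightest probe set, and with EGF 3 rose and 5 fell, with medians of -0.03 and -0.02. Those are 11 and 8 of 27 called, where 45.8% and 36.1% of all genes were. Against EGF, 3 were higher and 7 lower in arrays labelled ERBB2, with a median of -0.12, where 12.8% of all genes were called higher and 16% lower. Among them were NFIL3 (-0.93), PPARA (-0.71), NAMPT (-0.64), SIK1 (-0.62), NR3C1 (-0.365) and CSNK1E (0.45), with adjusted p from 2.001e-07 to 0.00945. The CSNK1E call was lost under 3 of 19 alternatives and the NR3C1 call under 1. The rest are given below. The activators CLOCK and BMAL1, which drive the PER and CRY genes, were not called in either comparison by their brightest probe sets. CLOCK read 335, 397 and 303 in vector cells, 290.1, 325 and 373 in arrays labelled ERBB2 and 333, 364 and 394 with EGF. The CLOCK groups overlapped throughout (-0.06, adjusted p = 0.7224, and 0.08, adjusted p = 0.6811), although a dimmer probe set rose in arrays labelled ERBB2 (0.47, adjusted p = 0.009668, or 0.06028 without vector replicate 3 and 0.05418 without ERBB2 replicate 2). BMAL1 read 233, 277 and 287, then 276, 247.5 and 196, and with EGF 265.5, 342 and 369.6. Its changes were -0.15 (adjusted p = 0.4422) and 0.27 (adjusted p = 0.1608), the latter called without EGF replicate 1 (0.40, adjusted p = 0.04586) and with equal array medians (0.43, adjusted p = 0.03562). A dimmer BMAL1 probe set rose in both comparisons (0.34, adjusted p = 0.02353, and 0.48, adjusted p = 0.003186), and the first call was lost without vector replicate 2 (adjusted p = 0.07292), vector replicate 3 (0.05553) or ERBB2 replicate 3 (0.0839). Set directly against EGF, the brightest BMAL1 probe set was lower in arrays labelled ERBB2 (-0.42, adjusted p = 0.03326), a call lost without ERBB2 replicate 2 (adjusted p = 0.05531), ERBB2 replicate 3 (0.1806), EGF replicate 2 (0.1065) or EGF replicate 3 (0.1679). The paralogues NPAS2 and BMAL2 were uncalled by their brightest probe sets. A BMAL2 probe set nearly as bright rose in both comparisons, from a mean of 49.0 to 79.2 in arrays labelled ERBB2 (0.55, adjusted p = 0.007851) and 101.2 with EGF (0.85, adjusted p = 0.000295). RORA and RORB, the receptors that oppose REV-ERB at the same element, were uncalled by their brightest probe sets. Group means were 10.2 to 14.1 for RORA, 7.38 to 14.2 for RORB and 9.55 to 15.6 for NPAS2, near the filter.

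Among other repressors and D-box factors, NFIL3 stood out by size. NFIL3, or E4BP4, represses the D-boxes that DBP and TEF activate. It read 1243, 1326 and 1277 in vector cells, 245.5, 246 and 224 in arrays labelled ERBB2, and 453, 452 and 499.9 with EGF. The 3 groups were far apart, with changes of -2.35 ± 0.09 (adjusted p = 8.265e-14) and -1.42 ± 0.09 (adjusted p = 3.939e-10). NFIL3 and DBP, which act oppositely on the D-box, fell together in both comparisons. CIPC, an inhibitor of CLOCK, fell in arrays labelled ERBB2 (-0.72, adjusted p = 7.103e-05) and was uncalled with EGF (-0.24, adjusted p = 0.1502). TIMELESS, a partner of clock proteins that also works at replication forks, rose in arrays labelled ERBB2 (1.09, adjusted p = 4.201e-06) and was uncalled with EGF (0.14, adjusted p = 0.5307). The tests of these differences were called too, with CIPC lower (-0.48, adjusted p = 0.006215) and TIMELESS higher (0.95, adjusted p = 5.319e-05) in arrays labelled ERBB2 than with EGF, and the CIPC difference was no longer called without EGF replicate 3 (adjusted p = 0.05215).

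Of 6 genes of clock protein turnover past the filter, 1 rose and 1 fell in both comparisons. CSNK1E, the casein kinase that marks PER proteins for degradation, rose by 0.91 in arrays labelled ERBB2 (adjusted p = 5.026e-06) and by 0.45 with EGF (adjusted p = 0.007838, and 0.05372 without vector replicate 1). The dimmer CSNK1E probe set gave 1.15 (adjusted p = 0.000224) and 0.51 (adjusted p = 0.08617). The related kinase gene CSNK1D was uncalled by its brightest probe set, while a dimmer CSNK1D probe set fell with EGF (-1.18, adjusted p = 7.87e-07). In arrays labelled ERBB2 it gave -0.37 (adjusted p = 0.02998), a call lost without vector replicate 1 (adjusted p = 0.07824), vector replicate 2 (0.1127), ERBB2 replicate 1 (0.0906) or ERBB2 replicate 3 (0.06132). GSK3B was uncalled by its brightest probe set, while a dimmer GSK3B probe set rose in arrays labelled ERBB2 (0.45, adjusted p = 0.006694). USP2, a clock-controlled deubiquitinase, fell from 83.5, 90.5 and 65.0 in vector cells to 27.5, 2.67 and 2.56 in arrays labelled ERBB2 and 8.38, 26.3 and 7.50 with EGF. Its changes were -1.94 ± 0.32 (adjusted p = 4.865e-05) and -1.72 ± 0.32 (adjusted p = 0.0003199). Their size depended on the pseudocount, with the calls kept. A pseudocount of 1 gave -3.47 and -2.625, and a pseudocount of 64 gave -0.95 and -0.88. The other USP2 probe set past the filter was uncalled in arrays labelled ERBB2 (-0.18, adjusted p = 0.6664) and lower with EGF (-0.83, adjusted p = 0.03389). Among 5 genes of clock inputs, NR3C1, the glucocorticoid receptor, fell from 1112 ± 89.5 to 466 ± 43.2 in arrays labelled ERBB2 (-1.23, adjusted p = 1.821e-09) and to 604 ± 23.9 with EGF (-0.86, adjusted p = 5.498e-07). SIK1, a kinase that restrains cyclic AMP signalling to PER1, fell in arrays labelled ERBB2 (-0.91, adjusted p = 1.558e-07), while its dim second probe set was uncalled (0.46, adjusted p = 0.3037). With EGF SIK1 changed by -0.28 (adjusted p = 0.0276) and CREB1, the cyclic AMP response factor, by 0.40 (adjusted p = 0.03529). Each of these last calls was lost under 6 of 19 alternatives, SIK1 with equal array medians (-0.12, adjusted p = 0.4155) and without vector replicate 1 (adjusted p = 0.05841), vector replicate 2 (0.1329), EGF replicate 2 (0.1207) or EGF replicate 3 (0.05608), and CREB1 without vector replicate 2 (0.1175), vector replicate 3 (0.125), EGF replicate 1 (0.1555) or EGF replicate 2 (0.05969). None of the other 6 CREB1 probe sets tested was called with EGF. In arrays labelled ERBB2 the brightest CREB1 probe set was uncalled and a dimmer one rose (0.48, adjusted p = 0.03662). That call was lost without vector replicate 2 (adjusted p = 0.08895), vector replicate 3 (0.1519), ERBB2 replicate 2 (0.08249) or ERBB2 replicate 3 (0.1207). CREM was uncalled by its brightest probe set, while a dimmer CREM probe set rose in arrays labelled ERBB2 (0.99, adjusted p = 0.0002087).

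The 4 output genes measured went separate ways. WEE1, a kinase that holds back mitosis and is known in mouse liver as a gene driven through E-boxes, rose in arrays labelled ERBB2 from 215, 166 and 141 to 399, 405 and 349 (1.09, adjusted p = 7.656e-06). With EGF it read 122, 182 and 134 (-0.23, adjusted p = 0.2887). The dimmer WEE1 probe set fell with EGF (-0.58, adjusted p = 0.0206), a call lost when EGF replicate 1 (adjusted p = 0.1262) or vector replicate 2 (0.06847) was left out. This call was also lost with quantile normalization (-0.46, adjusted p = 0.07109) and with equal array medians (-0.42, adjusted p = 0.1034). By the brightest, WEE1 was higher in arrays labelled ERBB2 than with EGF by 1.32 (adjusted p = 1.938e-06). NAMPT, the rate-limiting enzyme of NAD salvage, rose by 0.39 (adjusted p = 0.003363) and with EGF by 1.03 (adjusted p = 1.159e-07), although 1 dimmer NAMPT probe set fell in arrays labelled ERBB2 (-0.57, adjusted p = 0.008443). PPARA, a lipid-sensing nuclear receptor, fell by 1.51 on the log2 scale (adjusted p = 2.088e-06) and with EGF by 0.80 (adjusted p = 0.003065). Of 8 PPARA probe sets tested, 4 were called lower in arrays labelled ERBB2 and 3 with EGF, and none higher. ALAS1, the first enzyme of heme synthesis, rose in arrays labelled ERBB2 by 0.44 (adjusted p = 0.008859), or 0.32 without vector replicate 1 (adjusted p = 0.05795), and was uncalled with EGF (0.22, adjusted p = 0.2325).

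**Figure D3:**
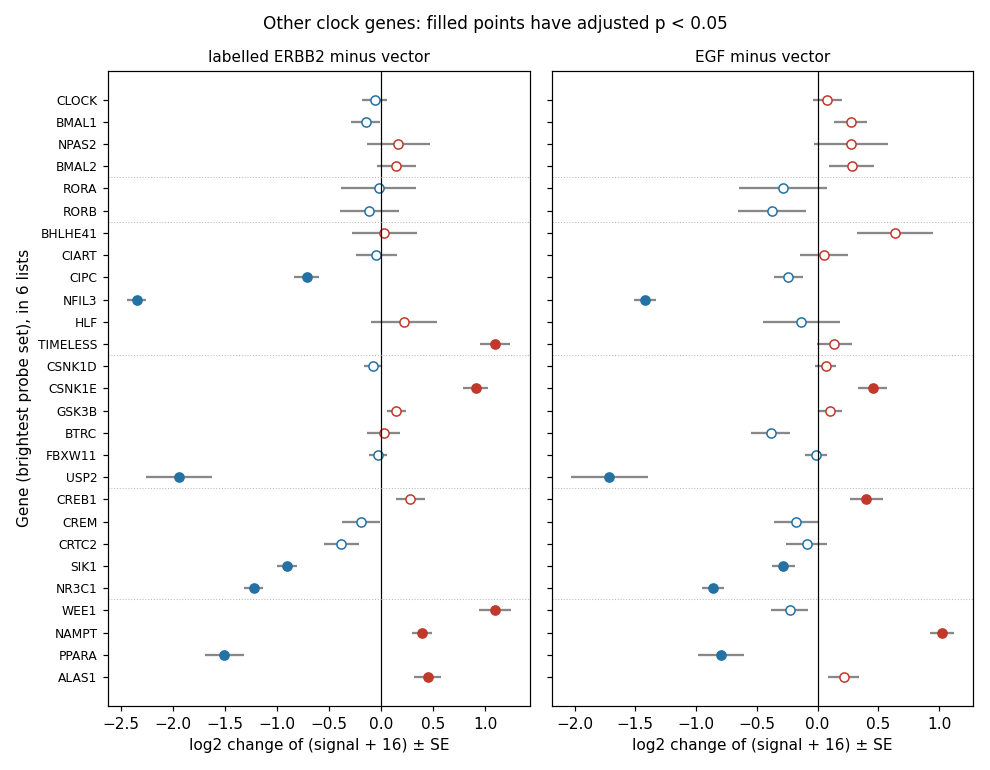
Log2 change of (signal + 16) ± SE for the 27 further genes of the loop past the filter, each by its brightest probe set, with dotted lines between the 6 groups (activators, ROR receptors, other repressors and D-box factors, protein turnover, inputs, outputs). Filled points had a limma adjusted p under 0.05. NFIL3 and USP2 lie farthest to the left in both panels, and the activators at the top are open.

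For each member called somewhere, the 2 genes nearest in pattern were found by the Euclidean distance between the 3 group means in log2, each centred on its own mean, over the brightest probe sets of 13725 other genes. The measure uses 3 points only, so near matches are many. Nearest to DBP were C1orf116 (distance 0.008) and TNKS1BP1 (0.014), and nearest to PER2 were PTPN13 (0.013) and SSH3 (0.017). CRY1 was closest to ZNF215 (0.009) and P2RY2 (0.019), and TEF to LAPTM4A (0.012) and RNF122 (0.013). NR1D2 had RPH3A (0.019) and H1-2 (0.041), and BHLHE40 had EIF5B (0.042) and DDHD1 (0.050). No other member or listed clock gene was among them.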

How the data were processed

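Each array's deposited column holds 1 intensity per probe set on a linear scale. The submitters' processing notes name MAS5 (version and settings: not given in the sources used here). A mean of 100.03 after trimming 2% at each end on every array shows array-wise scaling, which can hide part of a shift common to many genes. No detection calls entered, so whether a low signal lay above background was not determined. The platform annotation named 1 gene for 41097 of 54675 probe sets and several for 1801, and no symbol needed updating against RefSeq. Values were analysed as log2(signal + 16). Controls (62 probe sets) were removed, and the 32768 above the 40th percentile of mean log2 value were tested. Limma 3.58.1 (lmFit, eBayes with trend) in R 4.3.3 was fitted to the 9 arrays in 1 model of 3 group means (6 residual degrees of freedom), with Benjamini-Hochberg adjustment over all probe sets and a threshold of 0.05. The fit was also run on simulated data with independent noise and few changed probe sets. That setting differs from these arrays, where a far larger share was called, so it says nothing about the calls here. A single probe set with 3 arrays per group cannot fall below 0.1 in an exact permutation test. A gene was represented by its brightest probe set.

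The members and gene lists were chosen with earlier results of these data known. The text names all member probe sets, up to 3 called genes per list and comparison, CLOCK and BMAL1, and the 2 nearest genes per called member. Dimmer probe sets of other clock genes are named where they disagree with the brightest, though not every such case is given. These were chosen after their values were seen, as was running the alternatives on those called unlike the brightest. Alternatives were pseudocounts of 1 and 64, no filter or the 60th percentile, equal array medians, quantile normalization, no variance trend, array weights, only the arrays compared, a block for replicate number, each array omitted in turn, and averaging the probe sets of each gene.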

Additional observations from a re-analysis of the deposited data

How the results depend on the processing

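The count of members called stayed between 5 and 6 for the arrays labelled ERBB2 against vector and between 4 and 5 for EGF against vector over 20 alternatives, and was between 0 and 3 for the arrays labelled ERBB2 against EGF, where averaging the probe sets of a gene gave 0. The calls of CRY1, both NR1D2 probe sets, the brighter DBP probe set, both BHLHE40 probe sets and the PER1/MIR6883 probe sets 202861_at and 36829_at against vector kept direction and side of the threshold in each alternative run, as did PER2 205251_at in the arrays labelled ERBB2. The replicate numbers did not pair the arrays: correlations of same-numbered deviations lay between -0.03 and 0.02 over 9 pairs. With the replicate block the members called numbered 6, 4 and 3 and the probe sets called 12551, 9312 and 7618 in the 3 comparisons in the order above. Equal array medians moved the median change with EGF from -0.11 to 0.05 and the share of rises among calls from 44.8% to 67.5%. In the arrays labelled ERBB2 against EGF that share went from 48.8% to 31.8%. The other clock genes called higher with EGF then numbered 5, and 1 without a variance trend, against 3.

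Apart from TEF with probe sets averaged, a value set aside below, none of the called values run under the alternatives turned its sign. A pseudocount of 64 shrank dim values with their calls kept, for DBP to -0.61 in arrays labelled ERBB2 and -0.56 with EGF. With probe sets averaged, DBP was 0.25 in arrays labelled ERBB2 against EGF. The values obtained for TEF in those arrays were 0.20 against vector (adjusted p = 0.1016) and 0.23 against EGF. Neither can be the mean of the TEF probe sets. The brightest gave -0.77 and -0.32. Mean signals of the dim ones were 1.92, 2.91 and 2.01 in vector cells and 2.92, 1.02 and 1.76 in arrays labelled ERBB2. With EGF they were 2.23, 5.73 and 5.13. The averaged TEF change was therefore not determined. Among settings, equal array medians gave -0.0091 for PER3 1555131_a_at, -0.0026 for NR1D2 209750_at and -0.048 for PER1/MIR6883 36829_at in arrays labelled ERBB2 against EGF, where a pseudocount of 1 gave 0.0056 for BHLHE40 201169_s_at. NR1D1/THRA 31637_s_at, at 0.00 with EGF against vector, was 0.027 with a pseudocount of 64, 0.13 with quantile normalization, 0.16 with equal medians and 0.10 with array weights. The signs below turned when 1 array was left out. For arrays labelled ERBB2 against vector, PER3 1555131_a_at ranged from -0.47 to 0.025, PER3 221045_s_at from -0.13 to 0.28, DBP 209783_at from -0.046 to 0.40, NR1D1/THRA 204760_s_at from -0.26 to 0.44 and CLOCK from -0.15 to 0.038. For EGF against vector, NR1D1/THRA 204760_s_at ranged from -0.14 to 0.45, NR1D1/THRA 31637_s_at from -0.23 to 0.41 and CLOCK from -0.0069 to 0.18. For arrays labelled ERBB2 against EGF, PER3 1555131_a_at ranged from -0.14 to 0.26, NR1D2 209750_at from -0.065 to 0.24, BHLHE40 201169_s_at from -0.25 to 0.21 and NR1D1/THRA 204760_s_at from -0.42 to 0.27. Otherwise the causes were not tested. Signals near or under 20 limit what can be read for PER3, CRY2, most TEF probe sets and the dimmer PER2 and DBP probe sets. The same holds for NPAS2, RORA and RORB, and for the size of the USP2 fall.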
